A study of Mus musculus with 10 samples.

Results

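The genes described here are 10 markers of lipid-associated macrophages, found by their symbols in a table of 24062 genes measured in mouse liver: Gpnmb, Trem2, Mmp12, Itgax, Cd9, Cd63, Ctsd, Lgals3, Cd68 and Tyrobp. All 10 were among the 12648 genes tested, those that reached a value of 1 in 2 or more of the 10 libraries. The libraries were poly-A selected RNA-seq libraries of 5 groups, with 2 libraries in each. Tumours, labelled hepatocellular carcinoma, were 1 tumour each from 2 single mice that had received a Western diet and carbon tetrachloride (CCl4) for 24 weeks. The other 4 groups were liver: Western diet with CCl4, normal diet with CCl4, Western diet with oil (the vehicle) and normal diet with oil. Each liver group was 1 pool of 4 mice at 24 weeks and 1 pool of 4 mice at 12 weeks, so no condition had a repeat pool and the spread between single mice was not measured. The labels state no strain, sex, age or CCl4 dose. CCl4 is a solvent that hepatocytes turn into a toxic radical, and repeated doses scar the liver; a Western diet, rich in fat, sugar and cholesterol, loads it with lipid.

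Lipid-associated macrophages are cells that gather around dying, fat-laden cells in adipose tissue and in the fatty liver, where many derive from recruited monocytes. Trem2 is a surface receptor for lipids and debris that signals through the adaptor DAP12, encoded by Tyrobp. Gpnmb is a membrane glycoprotein of late endosomes and lysosomes, Cd68 and the tetraspanin Cd63 are lysosomal membrane proteins, and Ctsd is cathepsin D, an acid protease of the lysosome. Mmp12 is the macrophage elastase, Lgals3 the sugar-binding lectin galectin-3, Itgax the integrin chain CD11c and Cd9 a tetraspanin of the cell surface. Cd9, Cd63, Ctsd and Lgals3 are also made by other cells, bile duct cells among them. In a whole-liver library a higher number of such cells and more of the RNA in each cell cannot be told apart.

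Values are the deposited normalised signal, which is proportional to reads, with no correction for gene length, so levels are compared between libraries and not between genes. Libraries held between 23206229 and 30137802 recovered reads, so that 3 reads were worth 0.0862 to 0.137. The lowest count behind any value of the 10 genes was 9 reads, for Mmp12 in normal diet with oil at 12 weeks. Summed levels of 5 hepatocyte markers were 75931 to 232614 in the tumours, 67696 to 102801 in Western diet with CCl4, 72291 to 84615 in normal diet with CCl4, 104619 to 123713 in Western diet with oil and 129965 to 138939.8 in normal diet with oil, so all libraries carried the liver's defining RNA. The tumours differed in these genes: for 7 of the 10, tumour 1 was more than 1.5 times tumour 2. The share of all tested genes past this ratio was not computed. Changes are log2 fold changes ± standard error from limma on log2(value + 1), with 12 and 24 weeks as the repeats and a term for duration. This scale understates the change of a gene that is low in either group, and p-values were adjusted over the 12648 genes. Counts at an unadjusted p under 0.05 are given below without the share over all tested genes, and are not calls.

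Promoters of 9 of the 10 genes, from 250 bases before to 50 bases after the gene start, were taken from RefSeq (GRCm38.p6); the entry for Tyrobp is not used here. They are shown for 6 genes whose window held a searched motif, so that the matches can be read beside the changes of the same genes below. Capitals mark the matches to TGANTCA, the site of AP-1 factors, to CACGTG and TCATGTG, E-box forms that MITF and TFE factors bind, and to GAGGAAGT, a site of PU.1, all searched on both strands.
Gpnmb, chr6:49036268-49036567, plus strand: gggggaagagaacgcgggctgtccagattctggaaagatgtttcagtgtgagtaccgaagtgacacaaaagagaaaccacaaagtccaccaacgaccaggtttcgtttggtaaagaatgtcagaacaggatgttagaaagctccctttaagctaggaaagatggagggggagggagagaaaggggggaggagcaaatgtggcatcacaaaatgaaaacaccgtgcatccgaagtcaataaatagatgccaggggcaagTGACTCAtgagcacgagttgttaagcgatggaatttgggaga
Trem2, chr17:48346151-48346450, plus strand: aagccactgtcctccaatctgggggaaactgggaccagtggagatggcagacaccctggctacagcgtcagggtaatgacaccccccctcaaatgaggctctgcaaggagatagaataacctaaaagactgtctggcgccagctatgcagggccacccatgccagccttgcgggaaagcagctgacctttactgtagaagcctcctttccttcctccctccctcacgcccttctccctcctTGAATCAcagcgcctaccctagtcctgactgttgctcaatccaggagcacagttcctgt
Mmp12, chr9:7347124-7347423, plus strand: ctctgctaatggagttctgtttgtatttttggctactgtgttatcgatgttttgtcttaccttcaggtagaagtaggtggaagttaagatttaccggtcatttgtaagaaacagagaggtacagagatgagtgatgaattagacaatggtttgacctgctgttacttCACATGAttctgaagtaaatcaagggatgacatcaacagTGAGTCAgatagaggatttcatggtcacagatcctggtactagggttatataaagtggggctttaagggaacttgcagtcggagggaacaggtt
Itgax, chr7:128129300-128129599, plus strand: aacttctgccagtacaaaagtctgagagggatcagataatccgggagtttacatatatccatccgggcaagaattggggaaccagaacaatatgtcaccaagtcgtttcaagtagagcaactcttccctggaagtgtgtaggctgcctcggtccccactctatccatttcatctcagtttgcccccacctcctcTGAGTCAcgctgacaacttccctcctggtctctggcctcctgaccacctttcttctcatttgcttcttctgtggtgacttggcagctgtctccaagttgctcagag
Cd68, chr11:69666121-69666420, minus strand: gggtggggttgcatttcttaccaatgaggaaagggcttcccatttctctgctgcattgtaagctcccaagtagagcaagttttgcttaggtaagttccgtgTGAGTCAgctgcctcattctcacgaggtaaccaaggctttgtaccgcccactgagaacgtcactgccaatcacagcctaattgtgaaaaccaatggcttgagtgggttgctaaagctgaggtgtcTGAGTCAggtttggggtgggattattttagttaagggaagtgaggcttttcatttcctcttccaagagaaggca
Ctsd, chr7:142387778-142388077, minus strand: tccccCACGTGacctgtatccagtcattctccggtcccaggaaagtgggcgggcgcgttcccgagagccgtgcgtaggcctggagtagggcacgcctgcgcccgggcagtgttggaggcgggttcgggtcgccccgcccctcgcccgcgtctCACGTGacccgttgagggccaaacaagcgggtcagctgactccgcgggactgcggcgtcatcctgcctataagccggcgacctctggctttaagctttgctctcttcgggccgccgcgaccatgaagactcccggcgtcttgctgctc
TGANTCA was in the promoters of 5 of the 9 genes (Gpnmb, Trem2, Mmp12, Itgax and Cd68) and in 7.81% of all 32851 promoters, or those of 8.97% of 27025 genes. In Trem2, where it read TGAATCA, it began 9 bases before the gene start. In Mmp12 it began 44 bases before, in Itgax 56, and in Cd68 at 24 and again at 149. In Gpnmb it lay just past the start. CACGTG was in the promoter of 1 of the 9 genes, Ctsd, at 98 and 245 bases before the start. It was in 7.15% of all promoters, or those of 8.09% of genes. TCATGTG was in 1 of the 9, Mmp12, at 83 bases before the start, against 3.77% of all promoters, or those of 4.31% of genes. GAGGAAGT was in 1 of the 9, in another listed promoter of Mmp12 that is not shown. It was in 3.20% of all promoters, or those of 3.69% of genes. The window shown for Mmp12 belongs to the second of its listed starts. A match is a run of letters and not a measured binding site.

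Gpnmb, annotated at chr6:49036546-49070929, plus strand (GRCm38, GENCODE), was low in unexposed liver, at 18 reads in each pool, and higher in every exposed pool and in the tumours. Its values were 15.3 in tumour 1 and 12.0 in tumour 2. In Western diet with CCl4 they were 120.3 at 24 weeks and 121 at 12 weeks, and in normal diet with CCl4 98.4 at 24 weeks and 32.3 at 12 weeks. The tumours were thus below every liver pool given CCl4. Western diet with oil held 27.8 at 24 weeks and 33.2 at 12 weeks, and normal diet with oil 0.823 at 24 weeks and 0.799 at 12 weeks. The order of the groups was Western diet with CCl4, then normal diet with CCl4 and Western diet with oil, then the tumours, then normal diet with oil. The 12-week pool of normal diet with CCl4 lay between the pools of Western diet with oil, so that these neighbouring groups overlapped, while each other step in the order was clear of its neighbour. At 24 weeks, Western diet with CCl4 was 146 times normal diet with oil, and on the log2(value + 1) scale the change of 6.07 ± 0.37 (adjusted p = 4.29e-05) was the largest of all 12648 tested genes.

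Trem2 (chr17:48346401-48354147, plus strand) and Tyrobp (chr7:30413760-30417585, plus strand), the receptor and its adaptor, had the same groups at the top but unlike ranges. Trem2 values were 7.16 in tumour 1 and 3.22 in tumour 2, below both pools of Western diet with CCl4, which held 22.1 at 24 weeks and 15.7 at 12 weeks. In normal diet with CCl4 Trem2 was 18.2 at 24 weeks and 6.32 at 12 weeks, overlapping Western diet with CCl4. In Western diet with oil it was 4.89 at 24 weeks and 5.98 at 12 weeks, just under the earlier CCl4 pool, and in normal diet with oil it was lowest, at 1.28 at 24 weeks and 0.799 at 12 weeks. For Tyrobp, 31.3 in tumour 1 and 18.4 in tumour 2 stood below the Western diet with CCl4 pools at 41.1 at 24 weeks and 41.4 at 12 weeks. Normal diet with CCl4 had a Tyrobp signal of 37.4 at 24 weeks and 21.0 at 12 weeks. For Western diet with oil it was 19.4 at 24 weeks and 16.7 at 12 weeks, and normal diet with oil 13.7 at 24 weeks and 10.4 at 12 weeks. None of the 4 liver groups' Tyrobp ranges overlapped. The joint exposure changed Trem2 by 3.28 ± 0.32 (adjusted p = 0.000340) and Tyrobp by 1.70 ± 0.19 (adjusted p = 0.000516), both relative to normal diet with oil.

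Mmp12 (chr9:7344381-7369499, plus strand) and Lgals3 (chr14:47367751-47386160, plus strand) both had their highest liver values in the 24-week pools given CCl4. Mmp12 was 22.5 in tumour 1 and 5.55 in tumour 2. It was 52.3 at 24 weeks and 24.9 at 12 weeks in Western diet with CCl4, against 49.8 at 24 weeks and 16.3 at 12 weeks in normal diet with CCl4. These 2 groups overlapped, with duration separating the pools more than diet did. The oil pools on Western diet had 6.75 at 24 weeks and 5.98 at 12 weeks for Mmp12, and normal diet with oil 0.640 at 24 weeks and 0.399 at 12 weeks. Lgals3 was 28.4 in tumour 1 and 13.1 in tumour 2, below 59.2 at 24 weeks and 41.2 at 12 weeks in Western diet with CCl4. In normal diet with CCl4 it was 64.8 at 24 weeks and 24.7 at 12 weeks, the widest range of the 4 liver groups. Western diet with oil held 14.5 at 24 weeks and 11.9 at 12 weeks for Lgals3, and normal diet with oil 5.40 at 24 weeks and 3.37 at 12 weeks, and neither overlapped a CCl4 group. Mmp12 shares 2.17% of its exonic bases with Mmp1b on the opposite strand; Mmp1b is listed at 0 in every library.

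Itgax (chr7:128129547-128150657, plus strand), which marks dendritic cells as well as these macrophages, had the largest duration estimate of the 10 genes. Its values were 14.5 in tumour 1 and 4.15 in tumour 2, on either side of the earlier Western diet with CCl4 pool. That group held 20.2 at 24 weeks and 6.26 at 12 weeks, and normal diet with CCl4 16.4 at 24 weeks and 7.36 at 12 weeks. The range of normal diet with CCl4 lay inside that of Western diet with CCl4. With oil on a Western diet Itgax was 3.19 at 24 weeks and 1.97 at 12 weeks, and normal diet with oil 1.60 at 24 weeks and 1.06 at 12 weeks. These oil groups did not overlap, although the gap between the nearest pools was smaller than the gap between the pools of Western diet with oil.

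The lysosomal genes Cd68 (chr11:69664213-69666153, minus strand) and Ctsd (chr7:142375911-142388038, minus strand) were expressed in all libraries and moved over narrower ranges. Cd68 was 29.6 in tumour 1 and 15.0 in tumour 2. It was 41.9 at 24 weeks and 36.4 at 12 weeks in Western diet with CCl4 and 38.9 at 24 weeks and 21.7 at 12 weeks in normal diet with CCl4, 2 groups that overlapped. In Western diet with oil Cd68 was 16.2 at 24 weeks and 15.0 at 12 weeks, and in normal diet with oil 9.61 at 24 weeks and 6.65 at 12 weeks, each clear of every other liver group. Ctsd was 686 in tumour 1 and 625 in tumour 2, and 692 at 24 weeks and 726 at 12 weeks in Western diet with CCl4. Normal diet with CCl4 had 723 at 24 weeks and 566 at 12 weeks for Ctsd. Oil on a Western diet gave 457 at 24 weeks and 546 at 12 weeks, and normal diet with oil 406 at 24 weeks and 396 at 12 weeks. For Ctsd the tumours lay below both pools of Western diet with CCl4 and within the range of normal diet with CCl4, the CCl4 groups overlapped each other, and the oil groups lay below them and apart from each other. In the annotation Ctsd shares 34.4% of its exonic bases with Gm49369 on the same strand, so its reads cannot be assigned to Ctsd alone.

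The tetraspanins Cd9 (chr6:125460266-125494791, minus strand) and Cd63 (chr10:128900989-128912822, plus strand) were the 2 genes whose highest values were in the tumours. Cd9 was 149 in tumour 1 and 95.6 in tumour 2. In Western diet with CCl4 it was 73.0 at 24 weeks and 47.5 at 12 weeks, and in normal diet with CCl4 67.4 at 24 weeks and 39.8 at 12 weeks. Both tumours were above every liver pool, and the CCl4 groups overlapped. Western diet with oil had 30.9 at 24 weeks and 34.0 at 12 weeks for Cd9, and normal diet with oil 31.2 at 24 weeks and 31.5 at 12 weeks, which did not differ beyond their spread. Cd63 was 154 in tumour 1 and 169 in tumour 2, above 79.1 at 24 weeks and 57.8 at 12 weeks in Western diet with CCl4. Normal diet with CCl4 had 63.5 at 24 weeks and 20.0 at 12 weeks for Cd63, which overlapped both neighbouring groups. Western diet with oil had 17.8 at 24 weeks and 22.3 at 12 weeks, and normal diet with oil 6.31 at 24 weeks and 3.90 at 12 weeks, well below all others. Cd9 shares 10.7% of its exonic bases with Gm26728 on the opposite strand, and the sources used here do not say whether counting used strand.

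**Figure D1:**
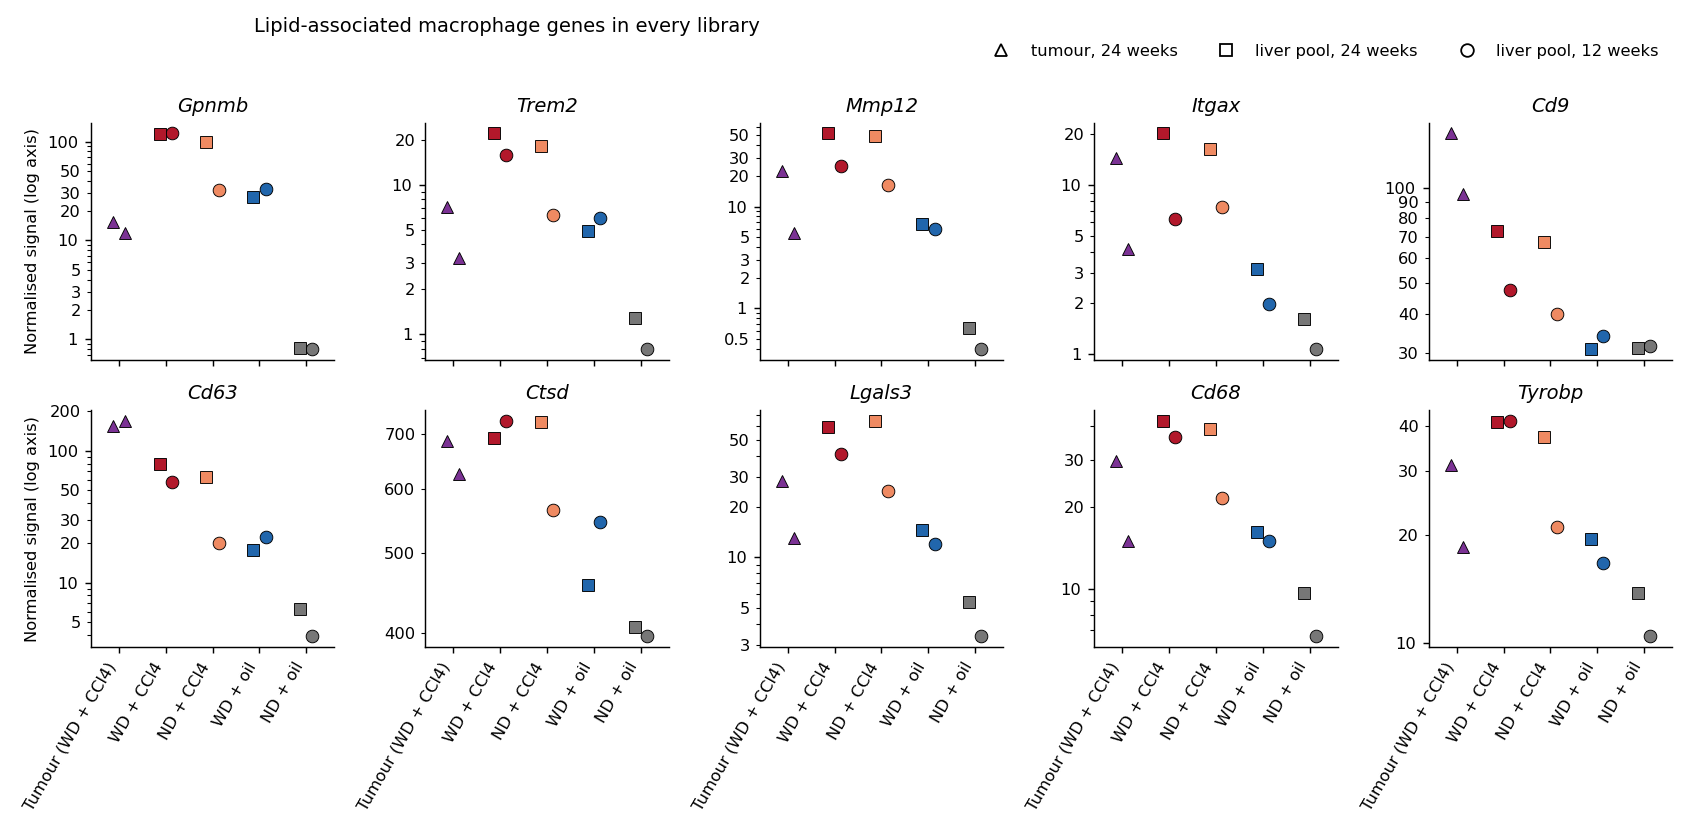
Normalised signal (log axis) of the 10 genes in each of the 10 libraries, by group; triangles are tumours, squares 24-week pools and circles 12-week pools. Both normal diet with oil pools sit below all other libraries for 9 of the genes, Cd9 being the exception. How many of all tested genes show this order was not computed, so the count has no background. Cd9 and Cd63 are highest in the tumours.

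To ask how far diet and toxin together moved the genes, the joint exposure was set against normal diet with oil. All 10 genes were higher in Western diet with CCl4, where 15.7% of the tested genes were called higher. Their changes ran from 0.82 ± 0.16 for Ctsd to 6.07 ± 0.37 for Gpnmb, with a median of 2.84 against a median of -0.02 over all tested genes. Mmp12 was changed by 4.62 ± 0.31 (adjusted p = 7.77e-05), Cd63 by 3.52 ± 0.35 (adjusted p = 0.000360), Lgals3 by 3.25 ± 0.23 (adjusted p = 9.60e-05) and Itgax by 2.42 ± 0.28 (adjusted p = 0.000664). Cd68 changed by 2.15 ± 0.18, and the smallest changes were those of Cd9, at 0.89 ± 0.21 (adjusted p = 0.0165), and Ctsd. Gpnmb, Mmp12 and Trem2 were under 1 in at least 1 pool of normal diet with oil and passed the filter on low values through the exposed libraries. The Cd9 call was lost without the 24-week pool of normal diet with oil (adjusted p = 0.153) and without the 24-week pool of Western diet with CCl4 (adjusted p = 0.112).

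The effect of the toxin without the Western diet was taken from the normal-diet groups, CCl4 against oil. All 10 genes were again higher with CCl4, against 15.3% of the tested genes. The median change of the 10 was 2.47, with the median over all tested genes at 0.00. Gpnmb rose by 4.99 ± 0.37 (adjusted p = 0.000110), Mmp12 by 4.29 ± 0.31 (adjusted p = 0.000110), Lgals3 by 2.96 ± 0.23 (adjusted p = 0.000162) and Cd63 by 2.62 ± 0.35 (adjusted p = 0.00151). Trem2 rose by 2.55 ± 0.32 (adjusted p = 0.00115), Itgax by 2.38 ± 0.28 (adjusted p = 0.000924), Cd68 by 1.74 ± 0.18 and Tyrobp by 1.16 ± 0.19. Cd9 rose by 0.71 ± 0.21 (adjusted p = 0.0391) and Ctsd by 0.67 ± 0.16 (adjusted p = 0.0158). Both calls were lost without the 24-week pool of normal diet with CCl4 (adjusted p = 0.310 for Cd9 and 0.176 for Ctsd) and without the 24-week pool of normal diet with oil (adjusted p = 0.279 for Cd9 and 0.0934 for Ctsd), and that of Ctsd without the 12-week pool of normal diet with oil (adjusted p = 0.0582).

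The effect of the diet without the toxin was taken from the oil groups, Western against normal diet. Of the 10 genes, 6 were higher on the Western diet, where 1.45% of the tested genes were called higher. The 6 were Gpnmb, at 4.11 ± 0.37 (adjusted p = 0.00163), Mmp12, at 2.28 ± 0.31 (adjusted p = 0.0123), Cd63, at 1.81 ± 0.35 (adjusted p = 0.0400), Trem2, at 1.66 ± 0.32 (adjusted p = 0.0393), Lgals3, at 1.42 ± 0.23 (adjusted p = 0.0205), and Cd68, at 0.88 ± 0.18 (adjusted p = 0.0489). Gpnmb had the largest positive change of all tested genes here. Not called were Itgax at 0.60 (95% confidence interval -0.04 to 1.25, adjusted p = 0.311), Tyrobp at 0.55 (95% confidence interval 0.13 to 0.98, adjusted p = 0.184), Ctsd at 0.32 (95% confidence interval -0.04 to 0.67, adjusted p = 0.333) and Cd9 at 0.05 (95% confidence interval -0.43 to 0.53, adjusted p = 0.933). The call for Gpnmb held in 17 of 19 alternative settings, whereas that for Cd68 held in 9. Without the 12-week pool of Western diet with oil none of the 10 was called by limma, without the 24-week pool 1 was, without the 12-week pool of normal diet with oil 2 were, and without its 24-week pool 1 was.

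CCl4 added to a Western diet, compared with oil on that diet, gave 9 genes called higher, against 4.29% of the tested genes. Mmp12 rose by 2.34 ± 0.31 (adjusted p = 0.00611), Gpnmb by 1.96 ± 0.37 (adjusted p = 0.0212), Lgals3 by 1.83 ± 0.23 (adjusted p = 0.00525), Itgax by 1.82 ± 0.28 (adjusted p = 0.0110) and Cd63 by 1.71 ± 0.35 (adjusted p = 0.0274). Trem2 rose by 1.62 ± 0.32, Cd68 by 1.27 ± 0.18, Tyrobp by 1.15 ± 0.19 and Cd9 by 0.84 ± 0.21 (adjusted p = 0.0492). Ctsd was the gene not called, at 0.50 (95% confidence interval 0.15 to 0.86, adjusted p = 0.0896). The count was 4 without the 12-week pool of Western diet with oil and 0 without its 24-week pool, and 6 without either pool of Western diet with CCl4.

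**Figure D2:**
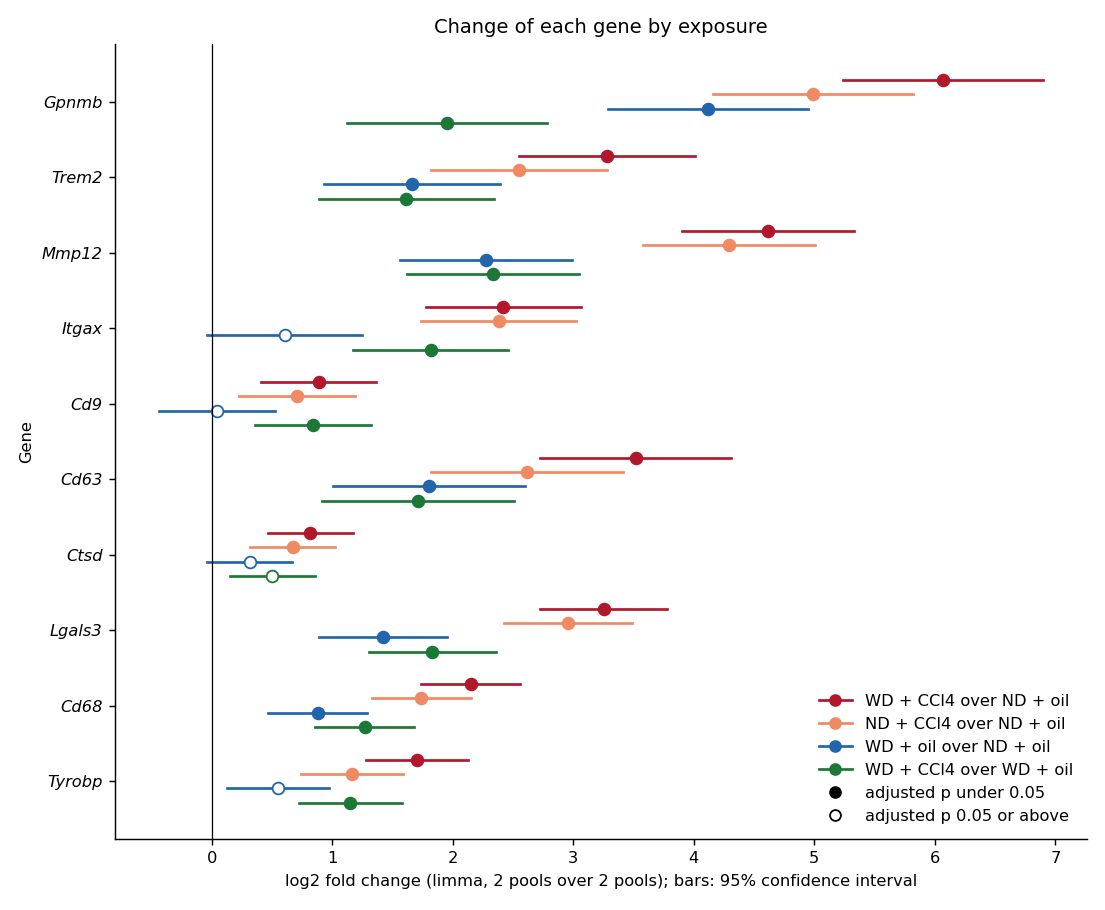
Log2 fold change of each gene in 4 comparisons with its 95% confidence interval; filled points passed the adjusted threshold of 0.05. Gpnmb and Mmp12 lie farthest right in the comparisons with normal diet and oil, while Cd9 under the Western diet with oil lies at 0.05.

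The Western diet added to CCl4 was compared with CCl4 on a normal diet to ask whether the diet moved the genes further. By limma none of the 10 was called, against 0.0474% of the tested genes in either direction; edgeR and DESeq2 on the recovered reads also called none, and 4 of the 10 had an unadjusted p under 0.05. Gpnmb was at 1.08 (95% confidence interval 0.25 to 1.91, adjusted p = 0.595), Cd63 at 0.90 (95% confidence interval 0.10 to 1.69, adjusted p = 0.660), Trem2 at 0.73 (95% confidence interval 0.00 to 1.46, adjusted p = 0.709) and Tyrobp at 0.54 (95% confidence interval 0.12 to 0.97, adjusted p = 0.595). Gpnmb and Tyrobp were the 2 genes for which both pools of Western diet with CCl4 lay above both pools of normal diet with CCl4. How many of all tested genes were placed so was not computed. Itgax, at 0.04 (95% confidence interval -0.60 to 0.68, adjusted p = 0.994), was closest to no change. The pools parted by duration. At 12 weeks the ratio of Western diet with CCl4 to normal diet with CCl4 had a median of 1.67 over the 10 genes and reached 3.75 for Gpnmb, whereas at 24 weeks the ratios ran from 0.914 to 1.25 with a median of 1.09. These are ratios of 1 pool to 1 pool with no replicate check. Gpnmb was called without the 24-week pool of normal diet with CCl4 (log2 fold change 1.91, adjusted p = 0.0101).

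The interaction of diet and CCl4, that is the change with CCl4 on a Western diet minus the change with CCl4 on a normal diet, addressed the combined action named in the title of the series. Limma called none of the 10 genes, with 0.103% of the tested genes called in either direction and 3 of the 10 at an unadjusted p under 0.05. All 3 estimates were negative, a smaller step with CCl4 on the Western diet: Gpnmb -3.03 (95% confidence interval -4.21 to -1.86, adjusted p = 0.1), Mmp12 -1.95 (95% confidence interval -2.96 to -0.95, adjusted p = 0.226) and Lgals3 -1.13 (95% confidence interval -1.87 to -0.38, adjusted p = 0.366). DESeq2 on the recovered reads called these 3 lower, against 0.751% of the tested genes, at -4.26 (adjusted p = 0.000372) for Gpnmb, -3.38 (adjusted p = 1.08e-07) for Mmp12 and -1.35 (adjusted p = 0.0329) for Lgals3, and edgeR called none. With a pseudocount of 0.1, limma called Gpnmb and Mmp12, and it called Gpnmb without either pool of normal diet with CCl4. For Gpnmb, Western diet with oil stood at 27.8 at 24 weeks and 33.2 at 12 weeks, against 0.823 at 24 weeks and 0.799 at 12 weeks in normal diet with oil.

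Duration was tested over the 4 liver groups, 24 against 12 weeks. Limma called none of the 10, nor any of the tested genes (0%), with 6 of the 10 at an unadjusted p under 0.05. The largest estimates were 0.86 (95% confidence interval 0.41 to 1.31, adjusted p = 0.334) for Itgax, 0.74 (95% confidence interval 0.24 to 1.25, adjusted p = 0.344) for Mmp12 and 0.67 (95% confidence interval 0.30 to 1.04, adjusted p = 0.334) for Lgals3. DESeq2 called these 3 higher at 24 weeks, against 0.53% of the tested genes, with log2 fold changes of 1.13 (adjusted p = 0.00285) for Itgax, 0.97 (adjusted p = 0.0113) for Mmp12 and 0.74 (adjusted p = 0.0156) for Lgals3, and edgeR called none. In normal diet with CCl4 all 10 genes were higher at 24 weeks, by 1.28 times for Ctsd to 3.18 times for Cd63 with a median of 2.43. In Western diet with CCl4 7 genes were higher, with ratios of 0.953 to 3.23 and a median of 1.39; Itgax had the highest ratio and Gpnmb stood at 0.993. In Western diet with oil 5 genes were higher, with ratios of 0.795 to 1.62, and in normal diet with oil 9 were, with ratios of 0.992 to 1.62. Each is a single pair of pools, and the difference between groups in the step from 12 to 24 weeks was not tested. The share of all tested genes higher at 24 weeks in each pair was not computed, so these counts have no background.

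**Figure D3:**
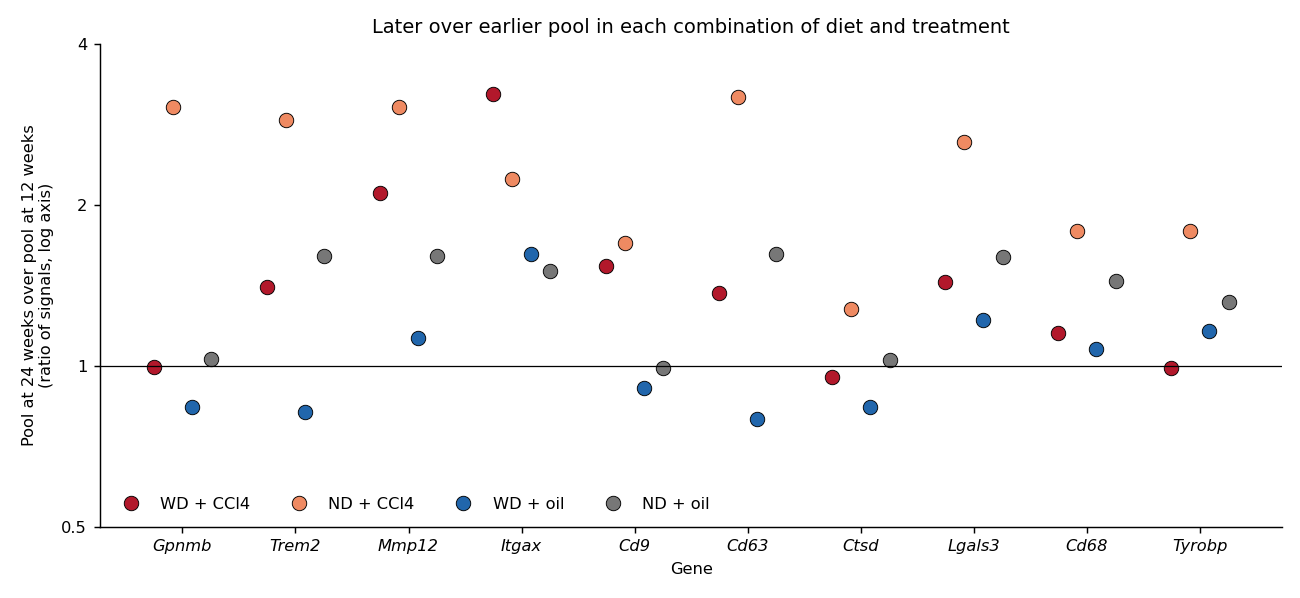
Ratio of the 24-week pool to the 12-week pool (log axis) for each gene in the 4 liver groups. The normal diet with CCl4 points lie above 1 for all 10 genes, with a median of 2.43, and the Western diet with oil points run from 0.795 to 1.62.

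The 10 genes were set against 9 pan-macrophage genes, which most macrophages carry and which include the receptor gene Csf1r and the pan-leukocyte gene Ptprc. In the joint exposure all 9 pan-macrophage genes rose, with a median change of 1.62 and a largest of 1.88 ± 0.19 for Laptm5, against the median of 2.84 for the 10 genes. With CCl4 on a normal diet 8 of 9 rose, with a median of 1.19, with the Western diet and oil 3 of 9 rose, with a median of 0.82, and with CCl4 on a Western diet 5 of 9, with a median of 0.80. A larger estimate than that of every pan-macrophage gene was found for 7 of the 10 genes in the joint exposure, for 7 with CCl4 and normal diet, 5 with the Western diet and oil, and 8 with CCl4 on a Western diet. The share of all tested genes above every pan-macrophage gene was not computed, so these counts have no background. The difference between the lists was not tested. For the numbers of genes called, in this and the lists below, the shares of all tested genes called are the background. In the joint exposure 15.7% were higher and 10.2% lower, and with CCl4 on a normal diet 15.3% and 10.6%. With the Western diet and oil 1.45% were higher and 0.546% lower, and with CCl4 on a Western diet 4.29% and 2.52%.

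Dividing each value by the geometric mean of the 9 pan-macrophage genes in its library gives a level relative to these 9 genes. It is not a level per macrophage for genes that other cells also make, such as Cd9, Cd63, Ctsd and Lgals3. The geometric mean was 41.4 at 24 weeks and 35.9 at 12 weeks in Western diet with CCl4. In normal diet with oil it was 15.0 at 24 weeks and 10.3 at 12 weeks. The Gpnmb ratio was 2.91 to 3.38 in Western diet with CCl4 and 0.0549 to 0.0772 in normal diet with oil, a 48.1-fold difference of geometric means. Mmp12 differed 23.1-fold by the same measure, Trem2 5.96-fold, Cd63 4.40-fold, Lgals3 3.75-fold and Itgax 2.79-fold. Cd68 was at 1.01 in both pools of Western diet with CCl4 and 0.640 to 0.643 in normal diet with oil, so 7 of the 10 genes were clear above. Tyrobp overlapped, at 0.992 to 1.16 in Western diet with CCl4 and 0.914 to 1.01 in normal diet with oil. Cd9 and Ctsd were lower relative to these genes, although the signal of both was higher in Western diet with CCl4. The Cd9 ratio was 1.32 to 1.76 in Western diet with CCl4 and 2.08 to 3.05 in normal diet with oil. Whether either fell within macrophages was not tested. With CCl4 on a normal diet the same 7 genes were clear above normal diet with oil. With the Western diet and oil 6 were. Itgax and Ctsd overlapped there, and Cd9 and Tyrobp were clear below, Tyrobp at 0.783 to 0.864 against 0.914 to 1.01. The share of all tested genes clear above on this ratio was not computed, so these counts have no background to be read against.

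**Figure D4:**
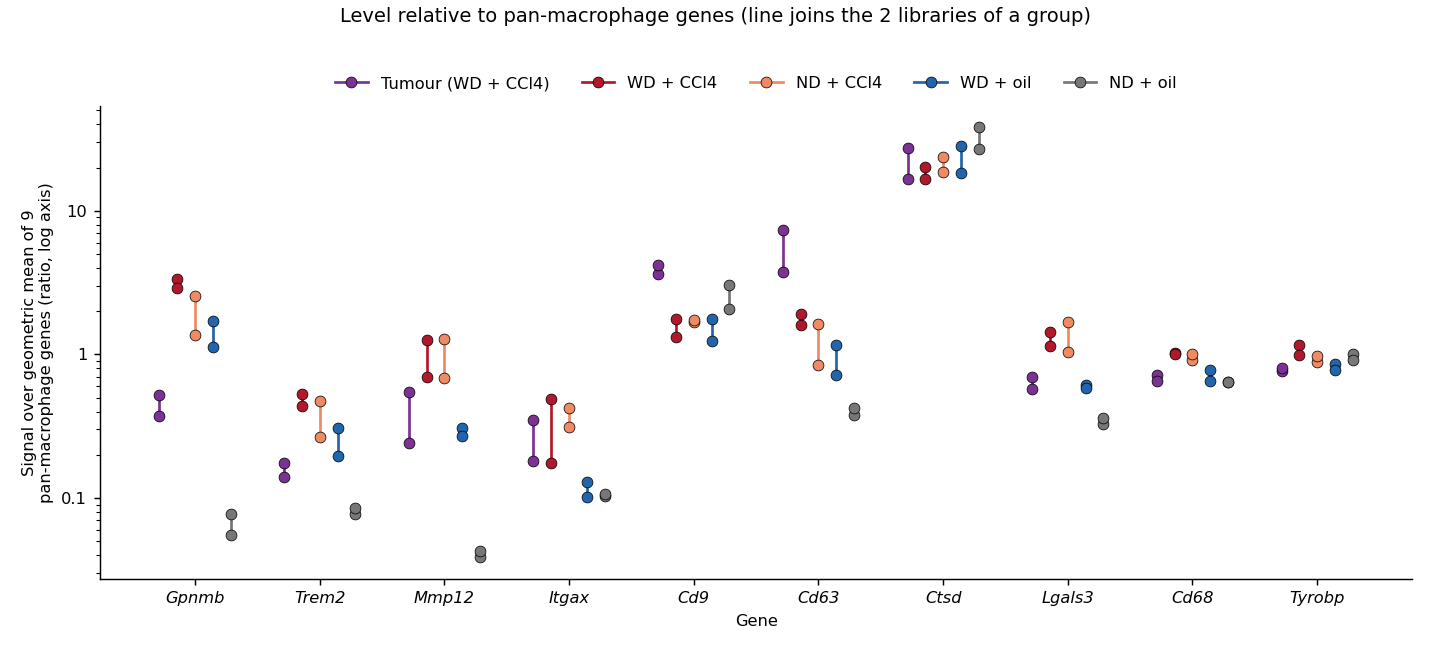
Signal of each gene divided by the geometric mean of 9 pan-macrophage genes in the same library (log axis); points are libraries and a line joins the 2 libraries of a group. The Gpnmb ratio was 48.1-fold higher in Western diet with CCl4 than in normal diet with oil, and Tyrobp overlapped between them.

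Other genes of the lipid-associated program, 21 in all and all tested, split in the joint exposure, with 13 higher and 2 lower. The beta-glucan receptor gene Clec7a rose by 3.54 ± 0.32 (adjusted p = 0.000217), the osteopontin gene Spp1, also a bile duct gene, by 2.52 ± 0.47 (adjusted p = 0.00601), and the actin-capping gene Capg by 2.42 ± 0.21 (adjusted p = 0.000194). Fabp5, a fatty acid binding protein that hepatocytes also make, fell by 0.93 (adjusted p = 0.0114), and the cathepsin L gene Ctsl fell by 0.38. Not called were the lysosomal lipase gene Lipa at 0.21 ± 0.13 (adjusted p = 0.244) and Apoe at 0.10 ± 0.34 (adjusted p = 0.854), which hepatocytes express too. With CCl4 on a normal diet 15 rose and 2 fell, with the Western diet and oil 4 rose and 1 fell, and with CCl4 on a Western diet 10 rose and 0 fell.

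The relay downstream of TREM2 and DAP12 has 8 tested genes of 9 listed, and 7 rose in the joint exposure. The kinase gene Syk, which docks on DAP12, rose by 1.63 ± 0.18 (adjusted p = 0.000481), the PI3-kinase subunit gene Pik3cd by 1.61 ± 0.19 and the exchange factor gene Vav1 by 1.47 ± 0.22. Grb2, an adaptor found in most cells, was at 0.01 ± 0.12 (adjusted p = 0.951). Under CCl4 and normal diet 6 of the 8 rose, against 15.3% of all tested genes. With the Western diet and oil 1 rose, against 1.45%, and with CCl4 on a Western diet 2, against 4.29%, and none fell. These genes serve other receptors of white cells as well.

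Of 21 lysosomal genes tested, 6 rose and 4 fell in the joint exposure, where 15.7% of all tested genes were called higher and 10.2% lower. The list median was 0.14, against -0.02 over all tested genes. Ctsk, the collagen-cutting cathepsin K, rose by 2.33 ± 0.33 (adjusted p = 0.00154) and Psap, the saposin precursor, by 0.84 ± 0.17 (adjusted p = 0.00891). Atp6v1h, a proton pump subunit, fell by 0.64 and the GM2 activator gene Gm2a by 0.55. With CCl4 on a normal diet 7 rose and 3 fell, against 15.3% of all tested genes called higher and 10.6% lower. With the Western diet and oil 1 rose and 1 fell, against 1.45% higher and 0.546% lower, and with CCl4 on a Western diet 2 rose and 1 fell, against 4.29% higher and 2.52% lower. Of the MITF and TFE factors, which switch on lysosomal genes, limma called 0 of 4 in the joint exposure, with 3 of the 4 at an unadjusted p under 0.05; Tfec was at 0.89 ± 0.32 (adjusted p = 0.0711) and Tfe3 at -0.28 ± 0.12 (adjusted p = 0.116).

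Relatives of the 10 genes moved in part. Among 9 other tetraspanins 4 rose in the joint exposure, led by Tspan8, an epithelial member, at 1.79 ± 0.48 (adjusted p = 0.0269) and Cd53, a leukocyte member, at 1.57 ± 0.18 (adjusted p = 0.000692), while the widely expressed Cd81 was at -0.05 ± 0.12 (adjusted p = 0.795). Among 3 tested galectins Lgals1 rose by 1.75 ± 0.21 (adjusted p = 0.000787), and Lgals9 was at -0.31 ± 0.13 (adjusted p = 0.109). All 3 tested genes of beta-2 integrins, the family of Itgax, rose: the shared chain gene Itgb2 by 1.79 ± 0.15 (adjusted p = 0.000187), Itgam by 1.62 ± 0.26 (adjusted p = 0.00291) and Itgal by 1.45 ± 0.19 (adjusted p = 0.00106). With CCl4 on a normal diet 3 tetraspanins, 1 galectin and 3 beta-2 integrin genes rose, and with the Western diet and oil 0, 0 and 2 did.

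Markers of other cells moved beside the 10 genes. Summed levels of 6 monocyte markers were 24.8 to 34.5 in Western diet with CCl4, 24.1 to 29.9 in normal diet with CCl4, 10.1 to 15.2 in Western diet with oil and 6.83 to 8.60 in normal diet with oil, with Vcan at 0 in the last group. In the joint exposure 4 of the 6 rose, led by Ccr2, the receptor that brings monocytes into tissue, at 2.37 ± 0.29 (adjusted p = 0.000836). The sums of 7 Kupffer cell markers were 346 to 674 in Western diet with CCl4, 397 to 455 in normal diet with CCl4, 298 to 344 in Western diet with oil and 191 to 281 in normal diet with oil, with 3 of 7 higher in the joint exposure. The 5 bile duct markers summed to values that were 137 to 577 in Western diet with CCl4, 155 to 357 in normal diet with CCl4, 76.3 to 85.9 in Western diet with oil and 49.7 to 64.3 in normal diet with oil, with 2 of 5 higher. For 5 stellate cell markers the sums were 154 to 295 in Western diet with CCl4, 124 to 188 in normal diet with CCl4, 75.7 to 79.9 in Western diet with oil and 33.3 to 33.9 in normal diet with oil, with 4 of 5 higher. Of 6 dendritic cell markers 3 rose, with sums of 12.0 to 12.2 in Western diet with CCl4 and 4.48 to 4.99 in normal diet with oil. The part of these cells in the changes of Itgax, Cd9, Cd63, Ctsd and Lgals3 was not tested. In the joint exposure 15.7% of all tested genes were called higher and 10.2% lower. B cell markers (0 of 4 called by limma, 0 with an unadjusted p under 0.05) and neutrophil markers (0 of 2 tested called, 0 with an unadjusted p under 0.05) were not called in the joint exposure, T and NK cell markers had 2 of 5 tested higher and 1 lower, endothelial markers 2 of 5 higher, and hepatocyte markers 1 of 5 lower.

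The genes most like the mean profile of the 10 across the 8 liver pools were sought among 6317 tested genes at or above the median level. The mean profile was the average of the log2 values after centring each gene. The 10 nearest by Pearson correlation were Pld3 (r = 0.995), Iqgap1, Rab3d, C1qb, Lgmn, Ctss, Laptm5, Ppt1, Marcks and Lrat (r = 0.989). Pld3, Lgmn, Ctss and Ppt1 encode enzymes of the lysosome, C1qb is a complement gene of macrophages, and Lrat is the retinol-storing enzyme of stellate cells. Pld3 had 55.4 at 24 weeks and 48.7 at 12 weeks in Western diet with CCl4, against 24.2 at 24 weeks and 23.4 at 12 weeks in normal diet with oil. The 8 points are whole-liver pools that share diet, toxin and cell makeup, so the correlation is a description.

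Tumours were compared with non-tumour liver of the same regimen, Western diet with CCl4. Of the 10 genes limma called 1, Gpnmb, lower in the tumours, at -3.23 ± 0.43 (adjusted p = 0.0228), where 0.506% of the tested genes were called lower. Its values of 15.3 in tumour 1 and 12.0 in tumour 2 stood against 120.3 at 24 weeks and 121 at 12 weeks in Western diet with CCl4. Estimates for Trem2 were -1.99 (95% confidence interval -3.04 to -0.94, adjusted p = 0.0936), for Lgals3 -1.64 (95% confidence interval -2.57 to -0.72, adjusted p = 0.107), for Mmp12 -1.95 (95% confidence interval -3.40 to -0.50, adjusted p = 0.182) and for Cd68 -1.05 (95% confidence interval -1.83 to -0.27, adjusted p = 0.181). Those for the tetraspanins were 0.95 (95% confidence interval 0.00 to 1.89, adjusted p = 0.297) for Cd63 and 0.85 (95% confidence interval 0.14 to 1.56, adjusted p = 0.222) for Cd9. Ctsd was at -0.12 (95% confidence interval -0.64 to 0.39, adjusted p = 0.836), Tyrobp at -0.92 (95% confidence interval -1.62 to -0.23, adjusted p = 0.187) and Itgax at -0.91 (95% confidence interval -2.16 to 0.35, adjusted p = 0.454). Of the 10 genes 8 had an unadjusted p under 0.05, a count given without the share over all tested genes. DESeq2 called 4 lower, Gpnmb, Trem2, Mmp12 and Lgals3, against 3.42% of the tested genes.

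**Figure D5:**
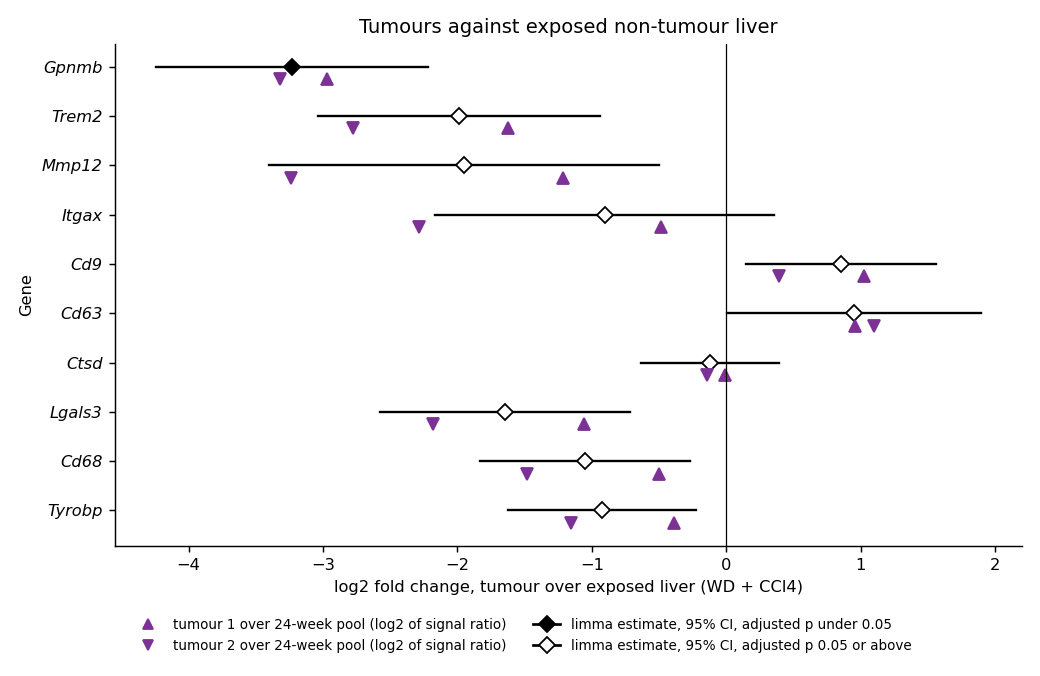
Log2 fold change of each gene in tumours over Western diet with CCl4 liver: diamonds with 95% confidence intervals are limma estimates, and triangles each tumour over the 24-week pool. Gpnmb lies lowest and is the filled point; Cd9 and Cd63 lie above 0 in both tumours.

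The tumour result rested on few libraries. Without tumour 1, 7 of the 10 genes were called lower, against 10.2% of the tested genes. Without tumour 2, 3 were called lower, against 8.6% of the tested genes, and Cd9 higher, against 9.26%. None was called without any 1 pool of Western diet with CCl4, Western diet with oil or normal diet with oil. Relative to the pan-macrophage genes, Gpnmb was 0.373 to 0.525 in the tumours and 2.91 to 3.38 in Western diet with CCl4, and 6 of the 10 genes were clear below. Cd63 was clear above, at 3.73 to 7.37 in the tumours and 1.61 to 1.91 in Western diet with CCl4. So was Cd9, at 3.61 to 4.17 in the tumours and 1.32 to 1.76 in Western diet with CCl4. The share of all tested genes clear below or above on this ratio was not computed, so these counts have no background. The summed pan-macrophage level was 328 to 506 in the tumours and 605 to 616 in Western diet with CCl4. By the geometric mean, which the ratios above use, tumour 1 was at 41.1 and tumour 2 at 22.9. Western diet with CCl4 was at 41.4 at 24 weeks and 35.9 at 12 weeks, so tumour 1 lay within its range and tumour 2 below it. The Kupffer cell sum was 235 to 257 in the tumours and 346 to 674 in Western diet with CCl4, and the bile duct sum 392 to 801 in the tumours and 137 to 577 in Western diet with CCl4. The part of bile duct-like or tumour cells in Cd9 and Cd63 was not tested. Among all genes of the lists the only one called here was Gm2a, higher in the tumours by 1.18 ± 0.15 (adjusted p = 0.0209), with signals of 253 in tumour 1 and 250.2 in tumour 2, against 106 at 24 weeks and 130.1 at 12 weeks in Western diet with CCl4.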

How the data were processed

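The libraries were made from frozen liver with an RNeasy kit, poly-A selection and a TruSeq kit, per the labels' protocols. Reads were aligned with STAR to mm10, per the submitters' processing notes, without versions; how reads were counted and scaled, and with which annotation, is not given in the sources used here. Per gene and library the authors deposited a normalised signal. Within 0.01 reads, 100% of the values were whole reads times 1 constant per library, so reads were recovered, with totals of 23206229 to 30137802; the values behave as reads scaled by library factors of 0.847 to 1.153. Floors of 3 reads cover counting error only.

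Each value was taken as log2(value + 1), and the 12648 genes that reached 1 in 2 or more of 10 libraries were fitted with a trended, two-sided limma model (limma 3.58.1, R 4.3.3). Liver comparisons used the 8 pools, with 1 mean per combination and a duration term (3 residual degrees of freedom), and the tumour comparison all 10 libraries (4). Same-duration pools are paired only by their label of 12 or 24 weeks. P-values were adjusted by Benjamini-Hochberg at 0.05. They measure the spread left between the 2 pools of a group once a shared duration shift is taken out, and between the 2 tumours. That spread includes any difference between groups in the step from 12 to 24 weeks. It is not the spread between animals. Alternatives included count models of the recovered reads, from edgeR 4.0.16 and DESeq2 1.42.0. The fits were tested on simulated data.

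All 10 genes are named throughout. From each of 18 gene lists (136 entries, of which 135 matched the table, Adgre1 under the older symbol Emr1; Ly6g did not match) the members with the largest called rise and fall in the joint exposure are named, with up to 2 uncalled ones. One gene of the lists is not reported here. Gm2a in the tumours, and Cd163, Marco and Timd4, were named after their values were seen. The genes and lists were chosen with earlier results of these data known. Coordinates are from GENCODE M21 (GRCm38) and promoters from RefSeq (GRCm38.p6).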

Additional observations from a re-analysis of the deposited data

How the results depend on the processing

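Of the 10 genes, the count called in the joint exposure stayed at 9 to 10 with each library left out, and that with CCl4 on a normal diet at 8 to 10. With all 10 libraries in 1 fit, CCl4 on a normal diet gave 6. For the Western diet with oil, 6 genes became 0 with no filter on low values, 2 with quantile normalization, 2 without the trend, 1 with no duration term (no replicate block) and 1 with all 10 libraries in 1 fit, and 0 to 6 with 1 library left out. For CCl4 on a Western diet, 9 became 0 with no filter, 5 with no duration term and 0 with all 10 libraries, and 0 to 9 with 1 library left out. The interaction gave 2 with a pseudocount of 0.1, 3 with DESeq2 and 0 to 1 with 1 library left out. The Western diet under CCl4 gave 0 to 1. Duration gave 3 with DESeq2. The tumour comparison, with 1 gene called, gave 0 with array weights, 4 with DESeq2 and 0 to 7 with 1 library left out. No filter lengthens the list of tested genes, and leaving out a library leaves a lone pool that is assumed to vary like the others; otherwise the cause was not tested. No replicate block exists for duration itself, and all 10 libraries were already used for the tumours, so these have no such value. The main design pairs pools by duration, and removing that pairing changed the counts only as given. Over single genes and settings, 566 values of called changes kept their call, 119 lost it and 0 changed sign; of uncalled ones 784 stayed uncalled, 25 became called and 26 changed sign. The sign changes were Tyrobp in the interaction, 0.0732 with quantile normalization and 0.0052 with median-ratio factors, Ctsd over duration, -0.0310 with array weights, and, with 1 library left out, these ranges: in the interaction -0.16 to 0.43 for Cd9, -0.39 to 0.0565 for Ctsd and -0.32 to 0.30 for Tyrobp; over duration -0.0785 to 0.53 for Gpnmb and -0.10 to 0.11 for Ctsd; for the Western diet under CCl4 -0.21 to 0.86 for Mmp12, -0.42 to 0.50 for Itgax, -0.11 to 0.48 for Cd9, -0.0768 to 0.37 for Ctsd and -0.16 to 0.75 for Lgals3; and for the Western diet with oil -0.24 to 0.34 for Cd9. No scaling moved the median of all genes by over 0.1 on the log2 scale.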

Other observations

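Of the 7 Kupffer cell markers, 3 were low in the 24-week pool of Western diet with CCl4 and in both tumours, and were named after their values were seen. Marco was 0.156 in tumour 1 and 2.13 in tumour 2, 1.61 at 24 weeks and 37.4 at 12 weeks in Western diet with CCl4, 6.47 at 24 weeks and 18.2 at 12 weeks in normal diet with CCl4, 32.4 at 24 weeks and 22.7 at 12 weeks in Western diet with oil, and 34.6 at 24 weeks and 10.8 at 12 weeks in normal diet with oil. Marco is a scavenger receptor of resident macrophages. Cd163 was 0.430 in tumour 1 and 1.32 in tumour 2, 0.632 at 24 weeks and 18.8 at 12 weeks in Western diet with CCl4, 4.90 at 24 weeks and 11.1 at 12 weeks in normal diet with CCl4, 2.63 at 24 weeks and 8.84 at 12 weeks in Western diet with oil, and 11.4 at 24 weeks and 9.36 at 12 weeks in normal diet with oil. Cd163 takes up haemoglobin. Timd4 was 0.235 in tumour 1 and 1.44 in tumour 2, 0.862 at 24 weeks and 7.30 at 12 weeks in Western diet with CCl4, 2.49 at 24 weeks and 5.25 at 12 weeks in normal diet with CCl4, 4.78 at 24 weeks and 4.57 at 12 weeks in Western diet with oil, and 7.96 at 24 weeks and 5.32 at 12 weeks in normal diet with oil. Timd4 is a receptor for dying cells. In the pools of Western diet with CCl4, Gpnmb was 120.3 at 24 weeks and 121 at 12 weeks, and Itgax 20.2 at 24 weeks and 6.26 at 12 weeks. Over the 4 liver groups the log2 fold changes for 24 against 12 weeks were -0.79 ± 0.71 for Marco, -1.45 ± 0.48 for Cd163 (limma, adjusted p = 0.349) and -0.61 ± 0.36 for Timd4, and none was called. The other 4 markers, Clec4f, Vsig4, Cd5l and Clec1b, lay between -0.11 and 0.12 over duration. Clec4f was 74.8 in tumour 1 and 76.6 in tumour 2, and 88.3 at 24 weeks and 159 at 12 weeks in Western diet with CCl4, against 90.8 at 24 weeks and 69.4 at 12 weeks in normal diet with oil. In the joint exposure Cd5l rose by 1.75 ± 0.29 (limma, adjusted p = 0.00357), Clec1b by 1.24 ± 0.26 (adjusted p = 0.0101) and Vsig4 by 0.67 ± 0.19 (adjusted p = 0.0301), and Clec4f was at 0.57 ± 0.24 (adjusted p = 0.107). The pools of Western diet with CCl4 are a single pair with no replicate check.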
